A study of Mus musculus with 4 samples.

Results

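Oxidative phosphorylation makes ATP from the electrons of food molecules, and its machinery is built from both genomes of the cell: the mouse mitochondrial DNA carries 13 protein genes, and all other subunits are nuclear. The 105 columns described here are those whose symbol starts with mt-, Nduf, Uqcr, Atp5, Cox4i, Cox5, Cox6, Cox7 or Cox8, or is Sdha, Sdhb, Sdhc or Sdhd, of 25289 gene columns in all. They hold 13 mitochondrially encoded and 92 nuclear genes. Of the nuclear genes, 36 belong to complex I, 4 to complex II, 8 to complex III, 20 to complex IV and 15 to complex V, and 9 are assembly factors or associated proteins (Ndufaf1 to Ndufaf7, Atp5s and Atp5sl). Ndufa4 and Ndufa4l2 are counted with complex IV.

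Transcripts of single cells of the adult mouse small intestine (C57BL/6J) were counted with inDrop, a droplet method that captures polyadenylated RNA near its 3′ end. The Lats-deleted group holds 2 libraries from Lrig1-CreERT2 Lats1fl/fl Lats2fl/fl mice, in which Cre is driven by Lrig1, a gene of crypt stem and progenitor cells. The control group holds 2 libraries from Lats1fl/fl Lats2fl/fl mice without Cre. Mice of both groups were given 2 mg of tamoxifen intraperitoneally and taken at day 7, and sorting kept EpCAM-positive cells that lacked CD45, TER119 and DAPI. LATS1 and LATS2 are the Hippo pathway kinases that restrain the coactivators YAP and TAZ. The question is what the loss of both kinases changes in this epithelium. The labels do not say whether libraries are separate animals, so p-values measure the spread between libraries, which may be technical.

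Complex I (NADH dehydrogenase) and complex II (succinate dehydrogenase) pass electrons to ubiquinone, complex III passes them to cytochrome c, and complex IV passes them to oxygen. Complexes I, III and IV pump protons, and complex V (ATP synthase) uses the gradient. Complex II has only nuclear subunits. In the small intestine, absorptive villus enterocytes are known to be rich in mitochondria and in enzymes of fatty acid oxidation.

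A barcode was kept as a cell if it had 1000 or more counts, 300 or more genes and no more than 30% of its counts from the mitochondrial genome, which left 726 and 1289 cells in the Lats-deleted libraries and 774 and 515 cells in the control libraries. Cells had a median of 3715.5 and 3848 counts in the Lats-deleted libraries, against 1708 and 1995 in the control libraries. Lats1 had 6.93 and 9.26 CPM (counts scaled to a common library size, as given with the processing) in the Lats-deleted libraries, against 23.4 and 35.2 CPM in the control libraries. Lats2 had 27.2 and 20.1 CPM in the Lats-deleted libraries, against 9.20 and 10.5 CPM in the control libraries. A tag near the 3′ end can come from an allele that lacks the exons between the loxP sites, and the labels do not name those exons, so neither value checks the deletion. Lats-deleted library 1 held 71 stromal-like cells and Lats-deleted library 2 held 427 stomach-like cells, neither of which is the labelled small-intestinal epithelium. Kept cells of any pair of libraries shared 4 to 12 barcodes. All 14 enterocyte markers were lower in the Lats-deleted libraries, with summed levels of 1559 and 743 CPM, against 26861 and 26797 CPM in the control libraries. All 13 markers of a fetal-like regenerative state were higher, with 31555 and 25304 CPM in the Lats-deleted libraries, against 304.9 and 488 CPM in the control libraries.

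Transcripts of the respiratory chain were a smaller part of all counts in the Lats-deleted libraries, from both genomes. The 13 mitochondrially encoded genes took 4.15% and 4.71% in the Lats-deleted libraries, against 10.3% and 8.38% in the control libraries. The 92 nuclear members took 1.54% and 1.70% in the Lats-deleted libraries, against 3.44% and 3.74% in the control libraries. The groups did not overlap on either share. The ratio of mitochondrially encoded to nuclear counts was 2.70 and 2.77 in the Lats-deleted libraries, against 3.00 and 2.24 in the control libraries, and here the groups overlapped. With 2 libraries a group, an exact permutation test of a single value cannot give a p below 0.33, so shares and ratios are given without a test. In sums over cells, fewer cells of a type and less RNA per cell cannot be told apart.

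Gene by gene, all 13 mitochondrially encoded genes fell in the Lats-deleted libraries, and 72 of the 86 nuclear members tested fell, while 0 members rose. Of all 12561 genes tested, 15.5% fell and 15.3% rose. Enterocyte-like cells made up 5.23% and 1.63% of kept cells in the Lats-deleted libraries, against 78.7% and 77.7% in the control libraries, and without them 4 mitochondrially encoded and 11 nuclear members fell. The count of 0 rises is from edgeR's quasi-likelihood test, and it was also 0 by DESeq2 and at an unadjusted p under 0.05 by either tool. The median log2 fold change was -1.63 over the mitochondrially encoded genes and -1.30 over the nuclear members tested, against 0.046 over all genes tested. Scaled by library totals in place of TMM, all 13 and 68 members fell, but the median over all genes moved to 0.30 and the split over all genes moved to 1575 lower and 2772 higher, against 1946 lower and 1923 higher. The medians of the members were then -1.38 and -1.05. Without control library 1, only 3 mitochondrially encoded and 13 nuclear members still passed, and without control library 2, 4 and 16 passed, whereas without Lats-deleted library 1 all 13 and 75 passed and without Lats-deleted library 2 all 13 and 77 passed. Markers of stromal cells were higher in Lats-deleted library 1 (1269 CPM summed, against 148 CPM in Lats-deleted library 2 and 56.7 and 43.1 CPM in the control libraries). Stomach markers were higher in Lats-deleted library 2 (9924 CPM summed, against 28.9 CPM in Lats-deleted library 1 and 17.5 and 17.9 CPM in the control libraries). Without the stromal-like and stomach-like clusters, 13 mitochondrially encoded and 74 nuclear members fell. Of 11 genes that mark RNA quality and dissociation, 7 rose and 0 fell, with summed levels of 1094 and 824 CPM in the Lats-deleted libraries, against 334 and 273 CPM in the control libraries, and their part in the results was not tested.

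**Figure D1:**
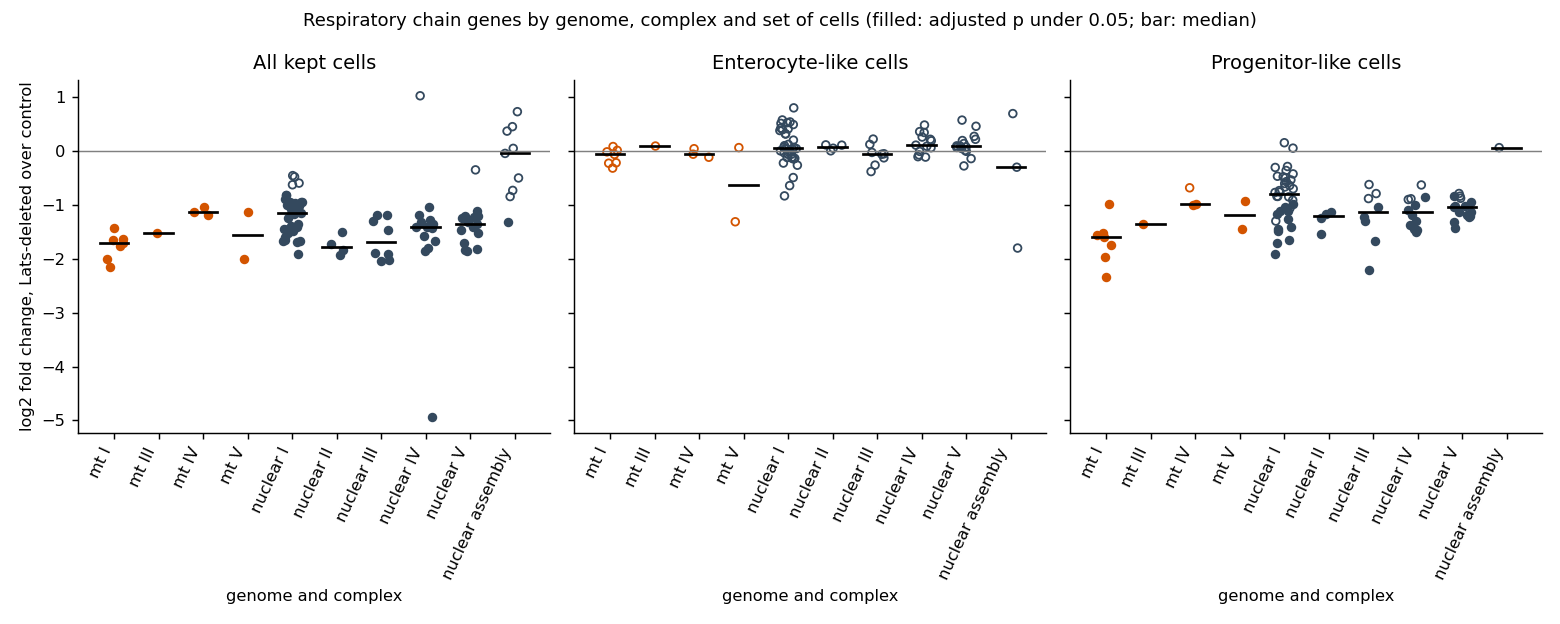
Each point is one gene, its log2 fold change (Lats-deleted over control, vertical axis) grouped by genome and complex, in all kept cells, enterocyte-like cells and progenitor-like cells. Filled points have an adjusted p under 0.05 and bars are medians. In all kept cells, the subunits of every complex lie below 0 apart from Cox6b2, with Cox7a1 lowest at -4.93, and in enterocyte-like cells no point is filled.

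Among the mitochondrially encoded genes, the 7 complex I subunits fell by a median of 1.70 on the log2 scale, and the 3 complex IV subunits by a median of 1.13. The difference between the 2 sets was not tested. The largest fall was that of mt-Nd4l, a small membrane subunit of complex I, with 157 and 164 CPM in the Lats-deleted libraries, against 775 and 648 CPM in the control libraries (log2 fold change -2.15 ± 0.228, adjusted p = 0.000909). Both Lats-deleted libraries lay below both control libraries, and by far more than libraries of a group differed. For mt-Nd3, another small membrane subunit, the values were 1084 and 1314 CPM in the Lats-deleted libraries, against 4932 and 4662 CPM in the control libraries (log2 fold change -2.00 ± 0.236, adjusted p = 0.00137). The smallest fall was that of mt-Co1, the catalytic subunit of complex IV, with 7024 and 6832 CPM in the Lats-deleted libraries, against 17158 and 11487 CPM in the control libraries (log2 fold change -1.05 ± 0.269, adjusted p = 0.0267). Control library 1 was the highest library for mt-Co1, and the adjusted p was 0.828 without the enterocyte-like clusters. For mt-Cytb, the only mitochondrially encoded subunit of complex III, the values were 4324 and 5403 CPM in the Lats-deleted libraries, against 16356 and 11427 CPM in the control libraries (log2 fold change -1.51 ± 0.277, adjusted p = 0.00752). The other mt-Nd genes, mt-Nd1, mt-Nd2, mt-Nd4, mt-Nd5 and mt-Nd6, had log2 fold changes of -1.42, -1.63, -1.70, -1.66 and -1.76, and mt-Co2 and mt-Co3 had -1.13 and -1.18. In all 13 genes both Lats-deleted libraries lay below both control libraries, as they did in 80 of the 86 nuclear members and in 33.2% of all genes tested. The ranges of adjusted p over the alternatives reached 0.494 for mt-Atp6, 0.48 for mt-Co2 and 0.419 for mt-Co3, in each case without the enterocyte-like clusters.

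Some of these genes share bases, which bears on how a count can be assigned. In the GENCODE M21 annotation (GRCm38), mt-Atp8 and mt-Atp6, both subunits of complex V, share 43 bases at chrM:7927-7969 on the same strand. In the stretch shown next, every base is in both genes and is in capitals.
mt-Atp8 and mt-Atp6: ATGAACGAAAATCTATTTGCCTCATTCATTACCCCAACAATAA
The complex I genes mt-Nd4l and mt-Nd4 share 7 bases, shown in capitals within the last 30 bases of mt-Nd4l (chrM:10144-10173).
mt-Nd4l and mt-Nd4: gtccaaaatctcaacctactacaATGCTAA
The ends of mt-Nd5 and mt-Nd6 share 14 bases on opposite strands. How the deposited counts split reads over such bases, and whether strand was used, is not given in the sources used here, so the split within each pair is uncertain. The log2 fold changes within the pairs were -2.00 for mt-Atp8 and -1.13 for mt-Atp6, -2.15 for mt-Nd4l and -1.70 for mt-Nd4, and -1.66 for mt-Nd5 and -1.76 for mt-Nd6. As deposited, mt-Atp8 had 50.8 and 66.3 CPM in the Lats-deleted libraries, against 246 and 224 CPM in the control libraries, and mt-Atp6 had 5030.1 and 6683 CPM in the Lats-deleted libraries, against 14468 and 11082 CPM in the control libraries. Their groups did not overlap in either gene.

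Of the 36 nuclear complex I subunits, 32 fell, with a median log2 fold change of -1.16 over the 36. Ndufa1, a small membrane-arm subunit, had 88.8 and 94.5 CPM in the Lats-deleted libraries, against 359.6 and 333 CPM in the control libraries (log2 fold change -1.92 ± 0.209, adjusted p = 0.00101). Ndufb9 had 132 and 141 CPM in the Lats-deleted libraries, against 431 and 443 CPM in the control libraries (log2 fold change -1.68 ± 0.210, adjusted p = 0.0017). Both genes were about as low in one Lats-deleted library as in the other. Ndufb5 had 70.5 and 82.8 CPM in the Lats-deleted libraries, against 232 and 253 CPM in the control libraries (log2 fold change -1.66 ± 0.212, adjusted p = 0.0019), and Ndufv3, a subunit of the NADH-binding module, had log2 fold change -1.60. Subunits of the electron-carrying peripheral arm, such as the flavoprotein Ndufv1 and the iron-sulfur proteins Ndufs1 and Ndufs8, had log2 fold changes of -1.16, -1.39 and -1.14, and these 3 were chosen after their values were seen. The accessory subunits Ndufa2 and Ndufb8 had log2 fold changes of -0.81 and -1.16. Only 4 subunits missed the threshold, Ndufb4, Ndufs4, Ndufb6 and Ndufc2, which are named after their values were seen. Their log2 fold changes were -0.63, -0.60, -0.48 and -0.46, with adjusted p of 0.0607, 0.0681, 0.109 and 0.172. In Ndufc2, Lats-deleted library 2 reached 142 CPM, against 169.9 CPM in control library 1.

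All 4 subunits of complex II fell, with a median log2 fold change of -1.78. Sdhb, its iron-sulfur subunit, had 119 and 102 CPM in the Lats-deleted libraries, against 428 and 417 CPM in the control libraries (log2 fold change -1.93 ± 0.218, adjusted p = 0.00114). Sdha, the flavoprotein that oxidises succinate, had 159.6 and 171 CPM in the Lats-deleted libraries, against 618 and 562 CPM in the control libraries (log2 fold change -1.84 ± 0.217, adjusted p = 0.00138). Neither gene's groups overlapped. The membrane anchors Sdhc and Sdhd had log2 fold changes of -1.50 and -1.73, and Sdhd was less even between the Lats-deleted libraries, at 88.2 and 166 CPM.

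All 8 nuclear subunits of complex III among the members fell, with a median log2 fold change of -1.68. Cyc1, also a subunit, lies outside the symbol rule and is given with the other lists. Uqcrh, the hinge protein that helps cytochrome c dock, had 188 and 301 CPM in the Lats-deleted libraries, against 988 and 1021 CPM in the control libraries (log2 fold change -2.04 ± 0.290, adjusted p = 0.00281). Lats-deleted library 2 was the higher of the Lats-deleted libraries but well below both control libraries. Uqcrfs1, the Rieske iron-sulfur protein, had 91.1 and 96.2 CPM in the Lats-deleted libraries, against 406 and 358 CPM in the control libraries (log2 fold change -2.03 ± 0.215, adjusted p = 0.000899). Uqcrc1 and Uqcrc2, the core proteins (the second chosen after its value was seen), had log2 fold changes of -1.91 and -1.46. Uqcr11, a small membrane subunit, had -1.90. Uqcrq was higher in Lats-deleted library 1 than in library 2, with 312 and 201 CPM in the Lats-deleted libraries, against 627 and 541 CPM in the control libraries and log2 fold change -1.19.

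Complex IV has 20 members here, of which 14 passed the filter on low counts and 13 fell. The 6 that did not pass, Cox4i2, Cox6a2, Cox7b2, Cox8b, Cox8c and Ndufa4l2, had 0 to 6 counts per library. Several complex IV subunits exist as paralogs, with one form in most tissues and others known for heart and skeletal muscle, testis or lung. Cox7a1, the form known for heart and skeletal muscle, lay lowest of all 99 members tested, with 9.49 and 6.50 CPM in the Lats-deleted libraries, against 244 and 238 CPM in the control libraries (log2 fold change -4.93 ± 0.276, adjusted p = 0.000184). This is a 30.5-fold lower level, and it rests on 37 and 40 counts in the Lats-deleted libraries, against 345 and 271 counts in the control libraries. Of those counts, 26 and 27 came from the 38 and 21 enterocyte-like cells of the Lats-deleted libraries, against 326 and 266 from the 609 and 400 enterocyte-like cells of the control libraries. Its paralog Cox7a2, the form of most tissues, had 248 and 408 CPM in the Lats-deleted libraries, against 958 and 1135 CPM in the control libraries (log2 fold change -1.67 ± 0.302, adjusted p = 0.00719), and Cox7a2l, which acts in supercomplex assembly, had log2 fold change -1.19.

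Cox4i1, the form of subunit IV in most tissues, had 655 and 702 CPM in the Lats-deleted libraries, against 1844 and 1771 CPM in the control libraries (log2 fold change -1.41 ± 0.219, adjusted p = 0.00395). Cox8a had 586 and 731 CPM in the Lats-deleted libraries, against 1953 and 1959.9 CPM in the control libraries (log2 fold change -1.57 ± 0.235, adjusted p = 0.00345). In both genes the control libraries were nearly equal and both Lats-deleted libraries lay far below them. Cox6a1 had log2 fold change -1.43, Cox7b -1.85, Cox7c -1.35 and Ndufa4 -1.42. Cox6b1, the common form of subunit VIb, fell (-1.31), with 445 and 369.5 CPM in the Lats-deleted libraries, against 1000.4 and 1017 CPM in the control libraries. Cox6b2, the form known from testis, was the one tested subunit above 0, with 13.1 and 3.57 CPM in the Lats-deleted libraries, against 3.54 and 4.39 CPM in the control libraries (log2 fold change 1.03 ± 0.780, adjusted p = 0.363). It was high in Lats-deleted library 1 only.

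**Figure D2:**
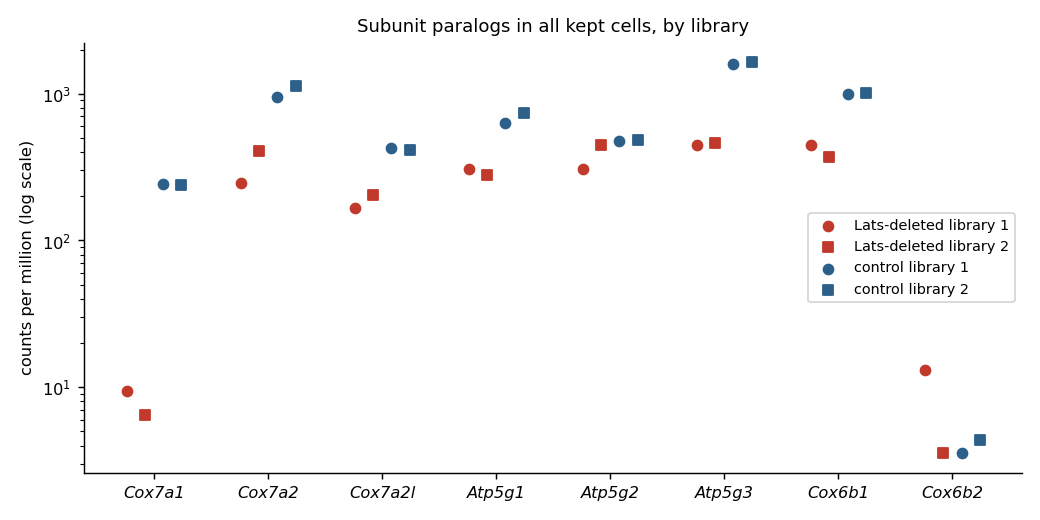
Levels of subunit paralogs of complexes IV and V in all kept cells, in CPM on a log axis, with one point per library, Lats-deleted libraries left of control libraries. The groups are far apart for Cox7a1, apart for Cox7a2, Cox7a2l, Atp5g1, Atp5g3 and Cox6b1, closer for Atp5g2, and overlapping for Cox6b2.

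Of the 15 nuclear members of complex V, 14 fell, with a median log2 fold change of -1.36. The catalytic head subunits Atp5a1 and Atp5b had log2 fold changes of -1.46 and -1.22. Atp5o, part of the stalk that holds the head still, had 171 and 210.3 CPM in the Lats-deleted libraries, against 671 and 703 CPM in the control libraries (log2 fold change -1.85 ± 0.230, adjusted p = 0.00167). Both Lats-deleted libraries lay far below both control libraries. Atp5j2 and Atp5k, small membrane subunits, had log2 fold changes of -1.82 and -1.71. Atp5g1, Atp5g2 and Atp5g3 encode the same mature subunit c, the rotor ring of the enzyme, with different import peptides, and the first 2 of them are named after their values were seen. Atp5g3 had 448 and 460.5 CPM in the Lats-deleted libraries, against 1595 and 1640.0 CPM in the control libraries (log2 fold change -1.83 ± 0.219, adjusted p = 0.00144). Atp5g1 had 308 and 280.5 CPM in the Lats-deleted libraries, against 628 and 737 CPM in the control libraries (log2 fold change -1.21 ± 0.223, adjusted p = 0.00771). Both fell without overlap of the groups. Atp5g2 did not pass, with 307 and 444 CPM in the Lats-deleted libraries, against 476 and 481 CPM in the control libraries (log2 fold change -0.35 ± 0.253, adjusted p = 0.339). The difference between Atp5g2 and its paralogs was not tested.

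The promoters of Atp5g1, Atp5g2 and Atp5g3 and of Cox7a1 and Cox7a2 are shown because these paralogs had falls of different size or different calls. Each stretch runs from 250 bases before to 50 bases after the annotated start of transcription (RefSeq, GRCm38.p6). It was searched on both strands for the cores of 3 factors known from respiratory chain promoters, and matches are in capitals: GCGCATGC for NRF1, CCGGAAGT for ETS factors such as GABP, and AAGATGGC for YY1.
Atp5g1 (chr11:96075582-96075881, minus strand): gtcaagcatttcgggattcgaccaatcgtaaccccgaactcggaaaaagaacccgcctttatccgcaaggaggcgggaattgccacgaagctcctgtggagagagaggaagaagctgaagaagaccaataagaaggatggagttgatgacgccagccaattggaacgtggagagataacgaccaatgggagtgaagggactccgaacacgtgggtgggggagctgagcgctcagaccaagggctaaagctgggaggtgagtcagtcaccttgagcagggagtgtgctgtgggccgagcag
Atp5g2 (chr15:102670998-102671297, minus strand): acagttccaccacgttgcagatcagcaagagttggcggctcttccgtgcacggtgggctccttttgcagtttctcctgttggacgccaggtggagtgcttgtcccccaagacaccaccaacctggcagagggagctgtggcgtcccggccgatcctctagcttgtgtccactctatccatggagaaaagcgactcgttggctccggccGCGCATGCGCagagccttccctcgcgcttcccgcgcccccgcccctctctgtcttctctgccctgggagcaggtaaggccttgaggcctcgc
Atp5g3 (chr2:73911277-73911576, minus strand): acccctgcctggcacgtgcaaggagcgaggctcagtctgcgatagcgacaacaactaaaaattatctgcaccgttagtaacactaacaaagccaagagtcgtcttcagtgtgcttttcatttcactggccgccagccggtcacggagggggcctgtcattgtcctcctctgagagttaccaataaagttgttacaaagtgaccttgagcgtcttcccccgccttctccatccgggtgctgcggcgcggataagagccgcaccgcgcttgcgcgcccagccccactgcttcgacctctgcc
Cox7a1 (chr7:30183921-30184220, plus strand): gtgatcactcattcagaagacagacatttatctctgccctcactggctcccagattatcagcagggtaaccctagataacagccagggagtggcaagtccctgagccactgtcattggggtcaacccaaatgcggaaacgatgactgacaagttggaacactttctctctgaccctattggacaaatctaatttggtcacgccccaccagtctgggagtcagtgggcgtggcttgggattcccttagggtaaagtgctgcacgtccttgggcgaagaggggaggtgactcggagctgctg
Cox7a2 (chr9:79759804-79760103, minus strand): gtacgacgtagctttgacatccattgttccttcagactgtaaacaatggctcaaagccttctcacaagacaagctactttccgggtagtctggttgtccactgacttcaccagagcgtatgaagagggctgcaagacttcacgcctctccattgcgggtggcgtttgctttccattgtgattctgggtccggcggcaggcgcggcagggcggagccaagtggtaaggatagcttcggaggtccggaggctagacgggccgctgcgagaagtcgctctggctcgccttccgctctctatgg
Of these 5 promoters, the one of Atp5g2 holds an NRF1 core, read on both strands in overlapping matches, and the other 4 hold none of the 3 motifs. A promoter was found for 76 of the 92 nuclear members. The NRF1 core stood in 12 of the 76 (15.8%), against 3.05% of the promoters of all 27025 genes in the table. The YY1 core stood in 11 of the 76 (14.5%), against 3.19% of all genes, and the ETS core in 5 of the 76 (6.58%), against 4.31% of all genes. A match is a description of the letters and not a binding site.

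Of the 9 assembly factors and associated proteins, Atp5sl alone fell (-1.31, adjusted p = 0.0138), and the median log2 fold change over the 9 was -0.044. Ndufaf4, a complex I assembly factor, had 30.3 and 44.2 CPM in the Lats-deleted libraries, against 35.4 and 36.9 CPM in the control libraries (log2 fold change 0.049 ± 0.275, adjusted p = 0.911). Ndufaf6 and Ndufaf7, which also act in complex I assembly, had log2 fold changes of 0.73 and 0.45, with adjusted p of 0.192 and 0.376. Ndufaf1 and Ndufaf3 lay below 0, with -0.73 and -0.85 and adjusted p of 0.209 and 0.0744. Ndufaf2 and Ndufaf5 had log2 fold changes of -0.044 and 0.37. These Ndufaf genes and Atp5sl are named after their values were seen. Counts were low for this group, which took 0.0128% and 0.0158% in the Lats-deleted libraries, against 0.0133% and 0.0144% in the control libraries, and those shares overlapped.

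The mitochondrially encoded and nuclear counts were also set against each other by complex. In complex I, the ratio of mitochondrially encoded to nuclear counts was 3.05 and 3.39 in the Lats-deleted libraries, against 4.91 and 3.98 in the control libraries, lower in both Lats-deleted libraries over all kept cells. This order did not hold at every depth: in cells of 1000 to under 2000 counts the complex I ratio was 5.60 and 6.14 in the Lats-deleted libraries, against 5.46 and 4.95 in the control libraries, higher in both Lats-deleted libraries. At 2000 to under 4000 counts the groups overlapped, and at 4000 to under 8000 counts it was 2.71 and 2.93 in the Lats-deleted libraries, against 4.93 and 3.60 in the control libraries. In enterocyte-like cells it was 4.13 and 4.05 in the Lats-deleted libraries, against 4.97 and 4.03 in the control libraries, and the groups overlapped. In complex IV the ratio over all kept cells was 4.01 and 3.68 in the Lats-deleted libraries, against 3.54 and 2.51 in the control libraries, higher in both Lats-deleted libraries. It was also higher in both at 1000 to under 2000 counts and at 2000 to under 4000 counts, in the second window with 5.29 and 5.48 in the Lats-deleted libraries, against 3.03 and 2.24 in the control libraries. At 4000 to under 8000 counts the groups overlapped, with 3.48 and 3.11 in the Lats-deleted libraries, against 3.84 and 2.52 in the control libraries. They also overlapped in enterocyte-like cells, with 3.01 and 2.37 in the Lats-deleted libraries, against 3.54 and 2.51 in the control libraries. Over all kept cells, the ratio in complex III was 2.98 and 3.40 in the Lats-deleted libraries, against 3.57 and 2.39 in the control libraries, and in complex V it was 1.24 and 1.44 in the Lats-deleted libraries, against 1.30 and 0.971 in the control libraries, and in these 2 complexes the groups overlapped. No p under 0.33 can be had for such a ratio with 2 libraries a group.

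The mitochondrially encoded share differed between shallow and deep cells. In cells of 1000 to under 2000 counts, the mitochondrially encoded genes took 8.46% and 7.69% in the Lats-deleted libraries, against 11.3% and 9.78% in the control libraries. In cells of 4000 to under 8000 counts they took 3.67% and 4.09% in the Lats-deleted libraries, against 9.94% and 8.61% in the control libraries. The gap between the groups in kept cells was thus wider in deep cells. The share was lower in deep than in shallow cells of the Lats-deleted libraries. The order in shallow cells depended on which barcodes were kept, and a limit for keeping them is on this share. In all barcodes of 1000 to under 2000 counts, kept or not, the groups overlapped. The share there was 27.6% and 11.3% in the Lats-deleted libraries, against 15.5% and 18.6% in the control libraries. At 4000 to under 8000 counts it was 3.80% and 4.09% in the Lats-deleted libraries, against 9.94% and 9.48% in the control libraries. The nuclear members took 1.67% and 1.61% in the Lats-deleted libraries, against 3.43% and 3.50% in the control libraries in the shallow window, and 1.56% and 1.73% in the Lats-deleted libraries, against 3.21% and 3.93% in the control libraries in the deep one. The groups did not overlap in either window. The ratio of mitochondrially encoded to nuclear counts was 5.07 and 4.79 in the Lats-deleted libraries, against 3.31 and 2.79 in the control libraries in the shallow window, and 2.36 and 2.37 in the Lats-deleted libraries, against 3.10 and 2.19 in the control libraries in the deep one. In the shallow window the Lats-deleted libraries were above both control libraries, and in the deep window the groups overlapped. The shallow window held 174 and 315 cells of the Lats-deleted libraries and 480 and 259 cells of the control libraries, and the deep window 214 and 456 cells of the Lats-deleted libraries and 52 and 44 cells of the control libraries. Among cells of 1000 to 3000 counts only, 8 of 13 mitochondrially encoded and 70 of the nuclear members fell. All of these were among the members that fell in all kept cells. The difference in depth between the groups moves with the mitochondrially encoded share, and its part in that share beyond these windows was not tested.

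**Figure D3:**
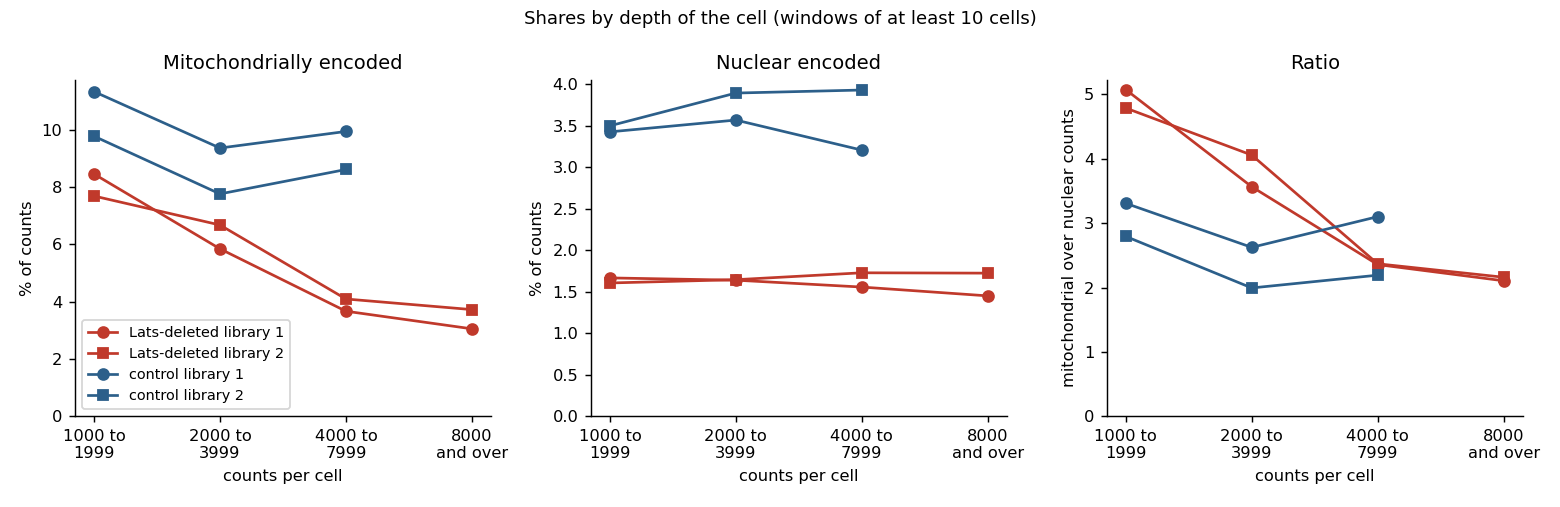
Share of counts from the mitochondrially encoded genes (left) and the nuclear members (middle) and their ratio (right), by counts per cell, with one line per library and windows of under 10 cells left out. The nuclear share stays between 1.45% and 1.73% in the Lats-deleted libraries and between 3.21% and 3.93% in the control libraries at every depth shown, while the mitochondrially encoded share of the Lats-deleted libraries falls with depth.

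Cells were then split into classes by clustering without the member genes, and classes were named from marker lists. Enterocyte-like cells made up 38 of 726 and 21 of 1289 kept cells in the Lats-deleted libraries (5.23% and 1.63%), against 609 of 774 and 400 of 515 in the control libraries (78.7% and 77.7%). The exact 95% intervals were 3.73% to 7.11% and 1.01% to 2.48% in the Lats-deleted libraries, and 75.6% to 81.5% and 73.8% to 81.2% in the control libraries, and they cover counting error only. The mitochondrially encoded share was 10.8% and 10.2% in the Lats-deleted libraries, against 11.2% and 9.51% in the control libraries, and the nuclear share was 4.24% and 4.41% in the Lats-deleted libraries, against 3.73% and 4.25% in the control libraries. The groups overlapped on both shares. None of the 38 and 21 cells shared a barcode with a kept cell of a control library. Of the 92 members tested in these cells, 0 fell and 0 rose by edgeR, where 0.102% of 5871 genes fell and 0.0511% rose. By DESeq2 the counts were also 0. At an unadjusted p under 0.05, 2 members were lower and 5 higher by edgeR, and 1 was lower and 1 higher by DESeq2. The share of all genes at that threshold was not taken. The median log2 fold change was -0.059 over the mitochondrially encoded genes and 0.066 over the nuclear members.

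Whether the enterocyte-like cells of the Lats-deleted libraries carry the deletion was not tested, since Lats1 and Lats2 counts do not check it. Their small number also limits what a test can show, so the intervals matter. Cox7a1 had 298 and 499.7 CPM in the Lats-deleted libraries, against 291 and 304 CPM in the control libraries in enterocyte-like cells, with log2 fold change 0.36 (95% interval -0.19 to 0.91). The fall of 4.93 in all kept cells lies outside this interval. Uqcrh, with 974 and 1258 CPM in the Lats-deleted libraries, against 1073 and 1172 CPM in the control libraries, had log2 fold change -0.026 (95% interval -0.46 to 0.41), and Cox4i1 had -0.0064 (-0.41 to 0.40). The interval of mt-Nd4 was -0.39 to 0.41, that of Sdha -0.41 to 0.51 and that of Atp5o -0.40 to 0.50. The member lowest in these cells was Atp5sl, at -1.80 with a wide interval (-4.44 to 0.84). It was followed by mt-Atp8, with 103 and 92.5 CPM in the Lats-deleted libraries, against 251 and 241 CPM in the control libraries (log2 fold change -1.31 ± 0.374, adjusted p = 0.202), and its groups did not overlap. Ndufb5 was next, with -0.83, and the highest member was Ndufv1, with 0.80, and none of these passed.

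Progenitor-like cells, the stem-like and cycling progenitor-like clusters together, numbered 33 and 278 in the Lats-deleted libraries and 100 and 63 in the control libraries. They are not the same clusters in both groups: 30 and 275 of the Lats-deleted cells were in the cycling cluster, which held 0 control cells, and all control cells were in the stem-like cluster. At resolution 2, a cycling cluster with 111 cells of Lats-deleted library 2 had the stomach marker Muc1 among its top 10 genes. The other cycling clusters had no stomach marker there. An unnamed cluster of 163 cells of that library scored best for the cycling list and had Cldn18, Vsig1 and Muc1 there. Whether the cycling cells of that library are intestinal was not tested. The nuclear members took 1.51% and 1.70% of the counts of the cycling cells of the Lats-deleted libraries, against 3.12% and 3.34% in the stem-like cells of the control libraries. The mitochondrially encoded genes took 2.99% and 4.61% of the counts of those Lats-deleted cells, against 8.66% and 7.08% in those control cells. Of 13 mitochondrially encoded genes 12 fell, and of 76 nuclear members tested 42 fell, while 0 rose by edgeR, by DESeq2 and at an unadjusted p under 0.05. In these cells 11.5% of 3901 genes fell and 11.4% rose. By DESeq2, 6 and 16 fell. Without control library 1, 5 and 24 fell, and without control library 2, 9 and 25 fell.

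Uqcr11, a small subunit of complex III, had 149.9 and 194 CPM in the Lats-deleted libraries, against 760.1 and 861 CPM in the control libraries in progenitor-like cells (log2 fold change -2.20 ± 0.280, adjusted p = 0.00161). Cox7a2l had 181 and 245 CPM in the Lats-deleted libraries, against 612 and 624 CPM in the control libraries (log2 fold change -1.50 ± 0.277, adjusted p = 0.00689). In both genes the control libraries were far above the Lats-deleted libraries. Atp5a1 had 618 and 689 CPM in the Lats-deleted libraries, against 1549 and 1533 CPM in the control libraries (log2 fold change -1.23 ± 0.228, adjusted p = 0.007), and mt-Nd4l had 125 and 199 CPM in the Lats-deleted libraries, against 686 and 640.1 CPM in the control libraries (log2 fold change -1.97 ± 0.305, adjusted p = 0.00342). The member mt-Co1 was the mitochondrially encoded gene that did not pass, with -0.68 (adjusted p = 0.118). Ndufb4, Ndufb6, Ndufs4 and Ndufc2, which missed the threshold in all kept cells, did so here too, with log2 fold changes of 0.053, 0.15, -0.48 and -0.31.

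Whether the log2 fold change differed between these classes was tested in one fit with the library as a block, a test added after the data had been seen. Since the progenitor-like cells of the groups were mostly in different clusters, the deletion and the type of cell cannot be told apart in it. The log2 fold change was lower in progenitor-like than in enterocyte-like cells for 7 of 13 mitochondrially encoded genes and for 20 of 77 nuclear members tested, and higher for 0. Of all 4850 genes tested, 6.52% were lower in this sense. The difference was -1.58 ± 0.339 for mt-Nd4 (adjusted p = 0.00374) and -1.72 ± 0.406 for Uqcrh (adjusted p = 0.0083). These counts rest on both control libraries: without control library 1 they were 0 and 1, and without control library 2 also 0 and 1. Without Lats-deleted library 1 they were 2 and 2, and without Lats-deleted library 2 they were 11 and 22.

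The other classes of the Lats-deleted libraries had nuclear shares well under those of enterocyte-like cells. In fetal-like regenerative cells, the largest class with 478 and 470 cells, the nuclear members took 1.42% and 1.38% of counts and the mitochondrially encoded genes 4.02% and 4.46%. The stomach-like cells of Lats-deleted library 2 had 1.99% and 4.91%, and the stromal-like cells of Lats-deleted library 1 had 1.12% and 3.36%. Low shares also occurred in control cells: goblet-like cells of the control libraries, 55 and 38 in number, had nuclear shares of 1.42% and 0.779% and mitochondrially encoded shares of 5.11% and 2.38%.

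**Figure D4:**
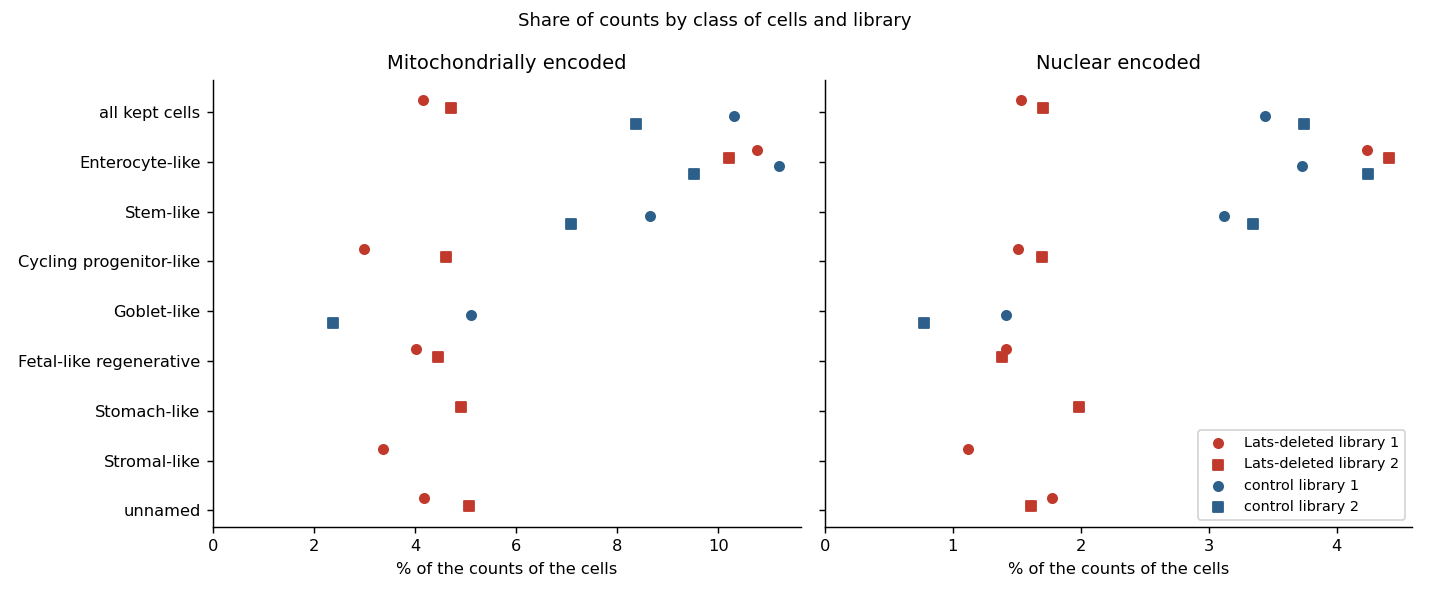
Share of the counts of a class of cells that came from the mitochondrially encoded genes (left) and the nuclear members (right), with one point per library and classes of at least 20 cells in a library. Enterocyte-like cells lie between 9.51% and 11.2% on the left and between 3.73% and 4.41% on the right in all 4 libraries, and the fetal-like regenerative, cycling, stomach-like and stromal-like cells of the Lats-deleted libraries lie far lower.

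All kept cells were therefore compared again without the enterocyte-like clusters, an alternative added after the data had been seen. This left 688 and 1268 cells in the Lats-deleted libraries and 165 and 115 cells in the control libraries. The control cells left were mainly stem-like (100 and 63) and goblet-like (55 and 38). Of these classes the Lats-deleted libraries held only 3 and 3 stem-like and 2 and 5 goblet-like cells. The deletion and the type of cell thus cannot be told apart in this setting either. Of 13 mitochondrially encoded genes 4 fell, and of 85 nuclear members tested 11 fell, where 6.29% of 11882 genes fell and 6.62% rose, and 0 members rose. At an unadjusted p under 0.05, 8 and 41 were lower and 0 higher, but the share of all genes at this threshold was not taken. The median log2 fold change was -0.96 over the mitochondrially encoded genes and -0.65 over the nuclear members. The 4 mitochondrially encoded genes were mt-Nd4l, mt-Atp8, mt-Nd6 and mt-Nd3. Of them, mt-Nd4l, mt-Atp8 and mt-Nd6 share bases with another mitochondrially encoded gene, so the uncertain split of reads applies to their counts. The genes they share bases with, mt-Nd4, mt-Atp6 and mt-Nd5, did not pass here by edgeR (adjusted p = 0.0886, 0.494 and 0.0657). A fall of mt-Nd4l, mt-Atp8 or mt-Nd6 apart from these partners was not tested. The nuclear members included Cox7a1, Uqcr11, Ndufb5, Atp5o, Cox7a2l, Cox8a, Ndufb10, Ndufa7, Ndufb11 and Ndufb7, of which the last 4 are named after their values were seen. In CPM of these cells, Uqcr11 had 136 and 173 CPM in the Lats-deleted libraries, against 443 and 420.0 CPM in the control libraries (log2 fold change -1.59 ± 0.274, adjusted p = 0.00849). Cox7a1 had 3.17 and 2.25 CPM in the Lats-deleted libraries, against 51.3 and 16.4 CPM in the control libraries (log2 fold change -3.78 ± 0.620, adjusted p = 0.00704), with control library 1 above control library 2, and rested on 11 and 13 counts in the Lats-deleted libraries, against 19 and 5 counts in the control libraries. Of the 85 members that fell in all kept cells, 7 also passed under each of the 16 alternatives: mt-Nd4l, mt-Atp8, mt-Nd6, Cox7a1, Uqcr11, Ndufb5 and Atp5o.

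Other mitochondrial genes did not all follow the respiratory chain. A list of electron carriers and their feeders also holds proteins of ATP synthase, such as Atpif1, and the complex III subunit Cyc1. Of its 17 genes tested, 9 fell and 1 rose (median log2 fold change -1.13). Etfdh, which passes electrons from fatty acid oxidation to ubiquinone, had 45.1 and 37.7 CPM in the Lats-deleted libraries, against 141 and 148 CPM in the control libraries (log2 fold change -1.80 ± 0.209, adjusted p = 0.00127). Atpif1, the inhibitor of ATP synthase, had log2 fold change -1.97, and Cyc1, the cytochrome of complex III, -1.65. Of 18 citric acid cycle genes, 12 fell and 0 rose. Mdh2, mitochondrial malate dehydrogenase, had 328 and 366 CPM in the Lats-deleted libraries, against 2448 and 2260.5 CPM in the control libraries (log2 fold change -2.76 ± 0.234, adjusted p = 0.000418), and Ogdh, a subunit of the oxoglutarate dehydrogenase complex, had -2.36. The groups did not overlap in any of these genes. Of 15 fatty acid oxidation genes, 13 fell and 0 rose. Hadh and Acaa2, which act late in the beta-oxidation spiral, had log2 fold changes of -3.32 and -2.97, and Cpt2, which completes carnitine-dependent import, -2.30.

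Lists of the machinery that builds mitochondria can be read against the 15.5% of all genes that fell and the 15.3% that rose. The mitochondrial ribosome list was taken by symbol (Mrpl and Mrps), and whether each protein is part of the ribosome was not checked. Of its 77 genes, 5 fell and 3 rose, with a median log2 fold change of -0.14. Mrps6 rose (1.44) and Mrpl34 and Mrps36 fell (-1.35 and -1.33). Of 30 import and chaperone genes, 2 fell and 0 rose, namely Tomm70a (-0.79) and Timm17b (-1.0). Of 25 genes of mitochondrial DNA upkeep and expression, 2 fell and 0 rose, namely Polg2 (-2.19), an accessory subunit of the mitochondrial DNA polymerase, and Mterf2 (-1.89). Of 34 assembly factors outside the 105 members, 7 fell and 0 rose, led by Sco2 (-2.36), a copper chaperone of complex IV, with Cox16 (-1.15) and Cox20 (-1.0).

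Of 11 regulators of mitochondrial biogenesis, 5 fell and 1 rose. Ppargc1a and Ppargc1b encode the coactivators PGC-1alpha and PGC-1beta, which drive transcription of respiratory chain genes. Ppargc1b had 8.21 and 5.85 CPM in the Lats-deleted libraries, against 55.2 and 72.1 CPM in the control libraries (log2 fold change -3.19 ± 0.306, adjusted p = 0.000615), and Ppargc1a had 15.6 and 11.9 CPM in the Lats-deleted libraries, against 85.7 and 63.3 CPM in the control libraries (log2 fold change -2.45 ± 0.280, adjusted p = 0.00119). Ppara, a nuclear receptor for fatty acids that induces their oxidation, had 2.82 and 1.14 CPM in the Lats-deleted libraries, against 24.8 and 34.3 CPM in the control libraries (log2 fold change -3.95 ± 0.488, adjusted p = 0.00162). All 3 were far lower in both Lats-deleted libraries. The regulator that rose was Pprc1, a coactivator of the same family, with 18.2 and 23.4 CPM in the Lats-deleted libraries, against 4.25 and 6.15 CPM in the control libraries (log2 fold change 2.02 ± 0.388, adjusted p = 0.00907), named after its value was seen. In enterocyte-like cells, 0 genes of these 8 lists passed in either direction by edgeR. Without the enterocyte-like clusters, the adjusted p was 0.781 for Ppargc1a, 0.271 for Cpt2, 0.481 for Sco2, 0.0356 for Ppara and 0.0705 for Mdh2. Among the other named genes of these lists, Ppargc1b, Hadh, Acaa2, Ogdh and Atpif1 stayed under 0.05 in that setting. Etfdh, Cyc1, Cox20 and Mterf2 were among those that did not. Lists and enterocyte markers fell in the same libraries, and the part of the smaller share of enterocyte-like cells in each list was not tested beyond this.

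**Figure D5:**
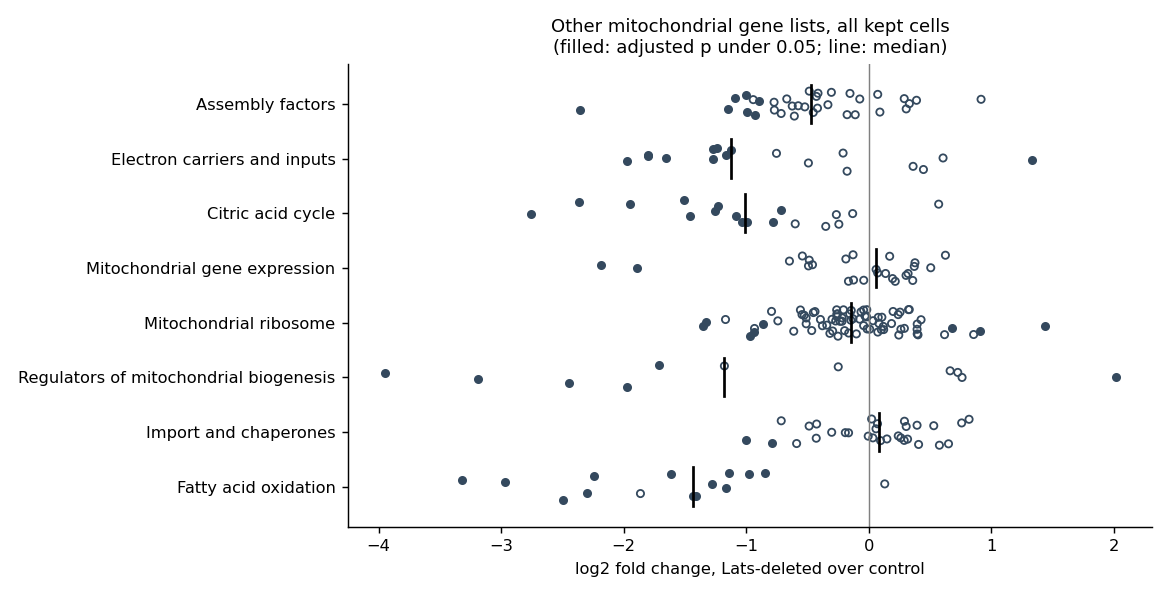
Each point is one gene outside the 105 members, with its log2 fold change in all kept cells (Lats-deleted over control, horizontal axis) in 8 lists of mitochondrial genes. Filled points have an adjusted p under 0.05 and lines are medians. Fatty acid oxidation, citric acid cycle and electron carrier genes lie mostly below 0, while the mitochondrial ribosome, import and gene expression lists lie around 0.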

How the data were processed

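The authors deposited a table of counts per gene and barcode for each library, without normalization. Per the labels' protocols, cells were sorted and encapsulated by inDrop, with 5000 sorted cells per condition. The submitters' processing notes name the build mm10 and the tools RSEM 1.3.0, Bowtie 1.1.1.1 and SAMtools 1.3.1, with no roles, and whether counts are of unique molecules is not given in the sources used here. The files held 4731529 and 9191916 counts in the Lats-deleted libraries and 2872497 and 2247269 counts in the control libraries.

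Counts of kept barcodes were summed per library and tested with edgeR 4.0.16 (quasi-likelihood, filterByExpr, TMM scaling, Benjamini-Hochberg adjustment over all genes tested, threshold 0.05) in R 4.3.3, after a check on simulated counts. Values after ± are standard errors of the log2 fold change. CPM of single genes were taken over the counts of genes that passed the filter, in the kept cells or the class, and scaled by TMM factors. Summed levels of marker lists and CPM without the enterocyte-like clusters were taken over all counts of those cells, without TMM factors. DESeq2 1.42.0 was an alternative. Cells were clustered with scanpy 1.11.5 (Leiden, resolution 1, 2000 variable genes, 30 components) without the member genes, classes needed at least 3 markers, and no doublet caller was run. Binomial intervals are exact (Clopper-Pearson).

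The members and gene lists were chosen with earlier results of these data known. Named genes were all mitochondrially encoded genes, the 3 of highest mean CPM and up to 4 of smallest p per nuclear complex, tissue-specific isoform sets, and up to 3 of smallest p per other list, and genes outside this rule are marked in the text. Some genes that the rule or a list would name are not reported here. Fold changes of genes near the filter are imprecise, since their counts are few.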

Additional observations from a re-analysis of the deposited data

Results flagged for a closer look

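The log2 fold change between the groups was lower in progenitor-like than in enterocyte-like cells for 7 mitochondrially encoded and 20 nuclear genes. This is by a test of the difference itself (edgeR's quasi-likelihood test, adjusted p under 0.05), and the counts rest on both control libraries. Among the 7 mitochondrially encoded genes, mt-Nd6 had the largest difference in log2 fold change and the largest standard error (-3.09 ± 0.953, adjusted p = 0.0428). The other differences were -1.65 for mt-Nd4l, -1.59 for mt-Nd2, -1.58 for mt-Nd4, -1.56 for mt-Nd3, -1.44 for mt-Cytb and -1.31 for mt-Nd5. Among the nuclear genes, Cox7a1 had the largest difference at -4.70, on 0 and 5 counts in progenitor-like cells of the Lats-deleted libraries, against 14 and 5 counts in those of the control libraries. In complex I the differences were -1.81 for Ndufb10 and -1.37 for Ndufs6. In complexes II and III they were -1.57 for Sdha, -1.90 for Uqcr11 and -1.72 for Uqcrh. In complex IV they were -1.69 for Cox7b, -1.64 for Cox7a2l, -1.45 for Ndufa4, -1.40 for Cox7a2, -1.32 for Cox8a, -1.31 for Cox6c and -1.26 for Cox4i1. In complex V they were -1.55 for Atp5g1, -1.47 for Atp5o, -1.44 for Atp5l, -1.42 for Atp5j2, -1.34 for Atp5a1, -1.32 for Atp5h and -1.28 for Atp5k. Atp5l, Atp5h, Cox6c and Ndufs6 are named here after their values were seen. The progenitor-like cells of the groups were mostly in different clusters, so the deletion and the type of cell cannot be told apart in these differences.

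Barcodes of 500 to under 1000 counts, which no comparison used, held 32.59% mitochondrially encoded counts in Lats-deleted library 1, above the 22.9% and 23.1% in the control libraries. Lats-deleted library 2 had 13.4% in that window, below both control libraries.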

How the results depend on the processing

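All 13 mitochondrially encoded genes and all 72 nuclear members that fell in all kept cells stayed below 0 under every alternative run, apart from the one without the enterocyte-like clusters, where all 13 and 71 of the 72 did. The counts of calls moved more. Leaving out 1 library gave 3 to 13 mitochondrially encoded and 13 to 77 nuclear members lower, 0 to 1 nuclear members higher (Cox6b2, where Lats-deleted library 1 is the only library left in its group and is assumed to vary like the control libraries), 705 to 2486 genes lower and 523 to 2906 genes higher. Without the enterocyte-like clusters, 4 and 11 members, 747 genes lower and 787 genes higher remained past the threshold. Among cells of 1000 to 3000 counts, 8 mitochondrially encoded genes were lower and 1263 genes higher, the log2 ratio of mitochondrially encoded shares was -0.33 against -1.07, and that of the ratio of mitochondrially encoded to nuclear counts was 0.80 against 0.077. The median over cells of the nuclear share gave -1.32 against -1.15. In progenitor-like cells, DESeq2 gave 6 and 16 members lower, leaving out 1 library gave 5 to 12 and 24 to 44, and thinning to 1000 counts per cell gave 21 nuclear members. The counts of differences between classes ranged over 0 to 11 and 1 to 22 when 1 library was left out. Without the enterocyte-like clusters, Cox16 was at 0.19 and Tomm70a at 0.090 on the log2 scale, above 0. Apart from alternatives that hold fewer cells or libraries, the cause was not tested. With the replicate block, 10 mitochondrially encoded and 72 nuclear members were lower in all kept cells and 11 and 45 in progenitor-like cells. Libraries of the same number had deviations that correlated at 0.045 over 12561 genes. The Lats-deleted libraries also differ in stromal-like and stomach-like cells, so this value cannot decide whether libraries of the same number are paired. Clusters at resolution 2 were not run for enterocyte-like cells, which then numbered under 20 in a library. The 38 and 21 enterocyte-like cells of the Lats-deleted libraries limit the precision in that class.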
